A study of Oryza sativa Japonica Group with 9 samples.

Results

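This comparison set nitrogen-deficient roots of rice directly against phosphorus-deficient roots, by the transcript levels of all genes measured in both. The members were chosen by their labels: the 3 libraries of roots under N deficiency and the 3 libraries of roots under P deficiency, 6 of the 9 libraries of the study. The other 3 libraries came from roots given control nutrients and served as the background. All plants were Oryza sativa Japonica Group of the cultivar Nipponbare, the tissue was root in every library, and the series describes 3 biological replicates for each treatment. The study asked which genes take part in both nitrogen and phosphorus homeostasis, and the direct comparison asks at which genes roots short of one nutrient differ from roots short of the other. For nutrient concentrations, plant age and length of treatment, which were not given in the sources used here, no value can be stated, so neither the severity nor the duration of the 2 deficiencies can be matched.

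Roots take up nitrate through high-affinity NRT2 transporters, which need a small partner protein of the NAR2 family, and take up ammonium through AMT transporters. Nitrate signalling works through NIN-like proteins (NLP), which activate nitrate-response genes, and through repressors such as NIGT1 that hold nitrate uptake down when nitrate is plentiful. Phosphate shortage is read by SPX proteins, which bind inositol pyrophosphates and hold back PHR transcription factors. When phosphate runs low, PHR factors switch on phosphate transporters of the PHT1 family (PT genes), secreted acid phosphatases and enzymes that replace membrane phospholipids with galactolipids and sulfolipids.

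Each of the 9 libraries held between 17931136 and 22752604 reads in genes. Levels below are reads recovered from the deposited values and divided by 1 size factor per library, called normalised reads, and they are listed in the order of replicates 1, 2 and 3. A log2 difference is N deficiency minus P deficiency on the log2(value + 1) scale with its standard error, so a positive value is higher in N deficiency, and this scale understates differences of low genes. A gene was called when its Benjamini-Hochberg adjusted p from limma, over all genes tested, was under 0.05. The root genes RCc3, LSI1 and LSI2 were detected in every library, at levels of at least 21244 normalised reads, and none of the 3 was called. Their summed level was 83534 in P deficiency library 3, against 152904 and 144263 in P deficiency libraries 1 and 2. PT8 and NRT2.3, also listed as root genes, were called in opposite directions and are described below. The root genes, like the other lists, were chosen with earlier results of these data known. On principal component 3, P deficiency library 3 had a score of -102.5 and the other 8 libraries scores of -21.3 to 42.3. Several results that this library moves are therefore given with and without it. In bulk root tissue, fewer cells of a type and less RNA per cell cannot be told apart.

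Of 32836 genes tested, 1241 were called, which is 3.78%. The direction was uneven: 455 genes (1.39%) were higher in N deficiency and 786 (2.39%) were higher in P deficiency. Differences were also larger on the P side, with a median size of 1.35 on the log2 scale against 0.96 on the N side. A log2 difference of at least 3 was reached by 105 called genes higher in P deficiency and by 27 higher in N deficiency, and one of at least 5 by 32 and 5 genes. The N and P libraries did not overlap at any of the 1241 called genes, but non-overlap alone was found at 6927 genes, 21.1% of those tested. The control mean lay between the N and P means at 238 of the 455 genes higher in N deficiency and at 381 of the 786 higher in P deficiency. It lay below both deficiencies at 180 and 181 of them, and above both at 37 and 224. Over all tested genes the control mean lay between the other means at 28.5%, below both at 35.3% and above both at 36.3%. Leaving out 1 library changed the total most for N deficiency library 1 (740 genes called), N deficiency library 3 (689) and P deficiency library 2 (752), and the genes higher in N deficiency then numbered 211, 157 and 217. Without P deficiency library 3, 1573 genes were called, 515 higher in N deficiency and 1058 higher in P deficiency.

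**Figure D1:**
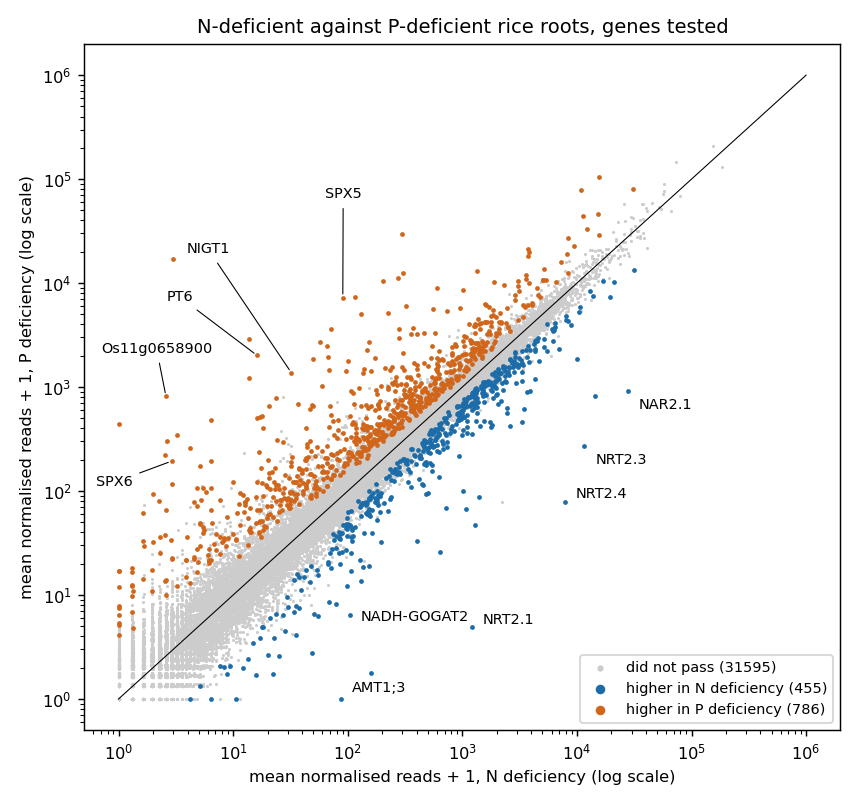
Mean normalised reads + 1 of each tested gene in N deficiency (x axis, log scale) against P deficiency (y axis, log scale). Blue points are the 455 genes called higher in N deficiency, orange points the 786 called higher in P deficiency, grey points those that did not pass, and the line marks equal levels. The orange points reach farther from the line than the blue ones, and NRT2, NAR2 and AMT1;3 lie at the N edge while SPX5, PT6, NIGT1 and Os11g0658900 lie at the P edge.

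Nitrate and ammonium uptake had the highest share of calls on the N side among the lists with at least 5 tested members. Of 15 listed genes of nitrate and ammonium uptake, 9 were higher in N deficiency and 1 was higher in P deficiency, with a median log2 difference of 1.71 against -0.00 over all tested genes. This is 66.7% called, against 3.78% of all tested genes. All 4 NRT2 genes and both NAR2 genes were among the 9. NRT2.1 (Os02g0112100, chromosome 2, 655324 to 657243, plus strand), a high-affinity nitrate transporter, was at 1393, 1018 and 1226 in N deficiency and 4.75, 4.10 and 2.86 in P deficiency normalised reads. Its N libraries lay far above every P library, and the control libraries, at 14.7, 11.4 and 10.9, lay between the groups but near the P level. The log2 difference was 7.96 ± 0.24, the largest on the N side among genes of the naming rule (limma, Benjamini-Hochberg adjusted p = 6.07e-08). NRT2.2, a closely similar gene on the same chromosome, was at 1423, 1021 and 1421 in N deficiency and 59.4, 43.1 and 34.3 in P deficiency, with controls at 116, 101 and 121 and a log2 difference of 4.81 ± 0.21 (limma, Benjamini-Hochberg adjusted p = 6.74e-07). The files do not say how reads shared by NRT2.1 and NRT2.2 were assigned, so how the pair divides its reads is uncertain.

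NRT2.4 (Os01g0547600, chromosome 1, 20385993 to 20388511, minus strand), another member of the transporter family, was at 8706, 6942 and 7903 in N deficiency and 67.7, 52.3 and 113 in P deficiency. Its controls, at 16.9, 17.1 and 30.01, lay below both deficiencies, and N deficiency exceeded P deficiency by a log2 difference of 6.71 ± 0.29 (limma, Benjamini-Hochberg adjusted p = 6.23e-07). NRT2.3 (Os01g0704100), which in rice also serves the loading of nitrate into the xylem, was at 11831, 8200.3 and 14843 in N deficiency and 297, 381 and 133 in P deficiency. All N libraries were far above all P libraries, among which library 3 was lowest, and controls at 336, 440.4 and 360.2 were close to the P level (log2 difference 5.51 ± 0.35, limma, Benjamini-Hochberg adjusted p = 1.05e-05). NAR2.1 (Os02g0595900), the partner protein that NRT2 transporters need at the membrane, was at 29822, 21445 and 31749.6 in N deficiency and 984, 1171 and 617 in P deficiency. The gap was again wider than the spread within either group, with a log2 difference of 4.93 ± 0.23 and limma, Benjamini-Hochberg adjusted p = 1.36e-06. For NAR2.2, the second partner gene, the levels were 629.8, 498 and 796 in N deficiency and 24.9, 27.7 and 21.9 in P deficiency, and the log2 difference was 4.61 ± 0.24 (limma, Benjamini-Hochberg adjusted p = 2.22e-06). The 6 genes kept their calls in all 20 alternative analyses.

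Ammonium transporters followed in part. AMT1;3 (Os02g0620500; the numbers 1;2 and 1;3 are used both ways in the RefSeq gene table, so the locus is the identity) had 129, 44.7 and 84.1 in N deficiency and 0, 0 and 0 in P deficiency normalised reads. No read fell on it in any P library, while the controls had 6.77, 1.90 and 7.28. Its level was at least 83.0-fold higher in N deficiency, against a floor of 3 reads over the P group (limma, Benjamini-Hochberg adjusted p = 6.91e-05). AMT1;1 (Os04g0509600), the widely expressed member of the family in rice, was at 1383, 1553 and 1677 in N deficiency and 571, 476 and 379 in P deficiency with controls at 579, 598 and 964. N libraries lay above all the others, and the log2 difference was 1.71 ± 0.21 (limma, Benjamini-Hochberg adjusted p = 0.00115). The neighbouring AMT1;2 (Os02g0620600) was at 145, 134 and 174 in N deficiency and 60.6, 71.8 and 46.7 in P deficiency, a log2 difference of 1.34 ± 0.28 (limma, Benjamini-Hochberg adjusted p = 0.0256). That call was lost without N deficiency library 1 or 3 or without P deficiency library 1 or 3, at limma adjusted p between 0.0502 and 0.114. AMT2;1, AMT3;1, AMT3;2 and AMT3;3 did not pass. Of these, AMT3;1 had a log2 difference of -0.03 ± 0.13 and AMT3;2 one of 1.25 ± 0.33 (limma, Benjamini-Hochberg adjusted p = 0.0695). AMT3;2 was called, higher in N deficiency, by DESeq2 (Benjamini-Hochberg adjusted p = 0.0131), and AMT3;3 with a pseudocount of 10 (limma, Benjamini-Hochberg adjusted p = 0.0334). Over the whole family by protein domain, 2 genes were higher in each deficiency without P deficiency library 3. With all libraries, 3 of 18 tested genes were higher in N deficiency and 1 was higher in P deficiency (22.2% called, against 3.78% of all tested genes). That gene, Os01g0831250, was at 111, 216 and 89.8 in N deficiency and 421, 508 and 259 in P deficiency, with controls at 425, 503 and 618 overlapping the P libraries (log2 difference -1.56 ± 0.33, limma, Benjamini-Hochberg adjusted p = 0.0294). Its call was lost in the fit of the 6 N and P libraries alone and without N deficiency library 1 or 3, P deficiency library 1 or 2 or control library 2, at limma adjusted p from 0.0581 to 0.118, and it overlaps Os01g0831300 over 1047 bases on the opposite strand.

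The dual-affinity side went the other way at 1 gene. NRT1.1B (Os10g0554200), a nitrate transporter and sensor of the NRT1/PTR family, was at 499.5, 497 and 497 in N deficiency and 1498, 2257 and 1023 in P deficiency. The N libraries were nearly level with each other and all below the P libraries, and controls stood above both at 5435, 3824 and 5543 (log2 difference -1.60 ± 0.25, limma, Benjamini-Hochberg adjusted p = 0.00550). Its relative NRT1.1A did not pass, with a log2 difference of -0.23 ± 0.20, and that gene overlaps another over 7352 bases on the opposite strand that holds 26881 reads. In the whole NRT1/PTR family, whose members carry nitrate, peptides or hormones, 3 of 88 tested genes were higher in N deficiency and 4 were higher in P deficiency. This is 7.95% called, against 3.78% of all tested genes. The 4 became 5 without P deficiency library 3. The 3 fell to 1 without N deficiency library 3. The 2 largest differences besides NRT1.1B were Os05g0411100, at 63.3, 34.8 and 78.3 in N deficiency and 227, 207 and 291 in P deficiency, and Os01g0871500, at 928, 887 and 1261 in N deficiency and 2659, 2579 and 4026 in P deficiency, both higher in P deficiency.

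**Figure D2:**
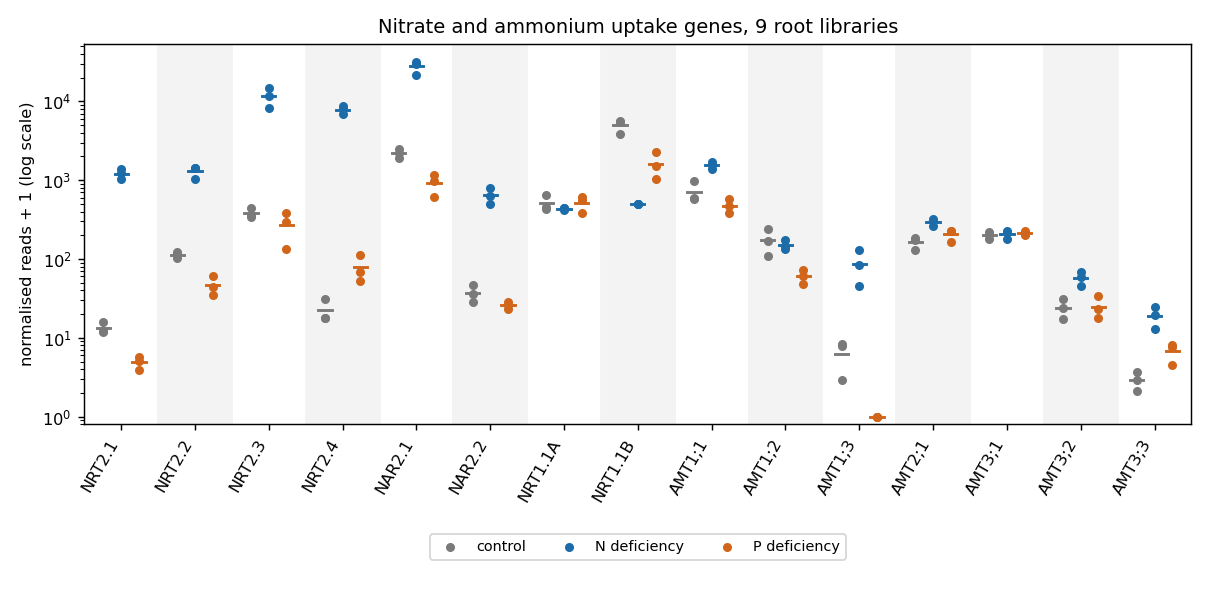
Normalised reads + 1 (log scale) of the 15 listed nitrate and ammonium uptake genes in the 9 libraries. Each point is 1 library and each bar the mean of 3 values on the plotted scale, in grey for control, blue for N deficiency and orange for P deficiency. The 4 NRT2 and 2 NAR2 genes and AMT1;3 separate N deficiency from P deficiency most widely, NRT1.1B is the one called gene with N deficiency lowest, and AMT3;1 is level in all groups.

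Genes that build nitrogen into amino acids differed less. Among 15 listed assimilation genes, 5 were higher in N deficiency, 0 were higher in P deficiency and the median log2 difference was 0.52. This is 33.3% called, against 3.78% of all tested genes. NADH-GOGAT2 (Os05g0555600), a glutamate synthase that works with glutamine synthetase, was at 135, 80.5 and 92.7 in N deficiency and 2.38, 6.15 and 7.63 in P deficiency. Every N library was above every P library and above the controls, which were at 23.7, 24.7 and 28.2 (log2 difference 4.09 ± 0.37, limma, Benjamini-Hochberg adjusted p = 0.000152). ASN2 (Os06g0265000), an asparagine synthetase, was at 1592, 1657 and 1588 in N deficiency and 724, 869 and 937 in P deficiency, with a log2 difference of 0.94 ± 0.14 (limma, Benjamini-Hochberg adjusted p = 0.00362). Both calls held in all 20 alternatives.

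The other 3 assimilation calls were less firm. The cytosolic glutamine synthetase GS1;1 (Os02g0735200) was at 27903, 33906 and 32010.4 in N deficiency and 17001, 14557 and 8377 in P deficiency, with controls at 10189, 10715 and 10107 below the N libraries and within the P range (log2 difference 1.29 ± 0.23, limma, Benjamini-Hochberg adjusted p = 0.0139). GS1;2 (Os03g0223400), the enzyme's other root form, was at 20369, 16412 and 21227 in N deficiency and 9026, 9362 and 3515 in P deficiency, with controls at 17324, 16163 and 20151 at the N level (log2 difference 1.53 ± 0.33, limma, Benjamini-Hochberg adjusted p = 0.0308). Fd-GOGAT (Os07g0658400), the ferredoxin-dependent glutamate synthase, had a log2 difference of 0.87 ± 0.19 (limma, Benjamini-Hochberg adjusted p = 0.0365). In all 3 genes P deficiency library 3 was the lowest of the P libraries. GS1;1 was lost without N deficiency library 3 (limma adjusted p = 0.0575) and in the fit of the 6 N and P libraries alone. GS1;2 was lost in that fit and without N deficiency library 1, 2 or 3 or control library 1 or 2, at limma adjusted p from 0.0534 to 0.122. Fd-GOGAT was lost in that fit and without any N or any control library, at limma adjusted p from 0.0518 to 0.133. The count of 5 then fell to 3 without N deficiency library 1 or 2 or control library 1 or 2, and to 2 without N deficiency library 3.

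The step before assimilation, reduction of nitrate and nitrite, showed no call. The nitrate reductase genes NIA1 (Os08g0468100), Os02g0770800 and Os08g0468700 had log2 differences of 0.52 ± 0.24, -0.17 ± 0.29 and 0.65 ± 0.44. Os02g0770800 was at 2848, 1908 and 2238 in N deficiency and 2497, 2386 and 2884 in P deficiency, both groups overlapping and both below the controls at 6404, 5241 and 12961. The nitrite reductase genes Os01g0357100 and Os02g0765900 had log2 differences of 0.28 ± 0.13 and 1.79 ± 0.59, the second with under 4 normalised reads in every library. Asparagine synthetase ASN1 (Os03g0291500) was at 4459, 6260.0 and 3914 in N deficiency and 9866, 11215 and 4656 in P deficiency and did not pass in the fit of all libraries (limma, Benjamini-Hochberg adjusted p = 0.242), with P deficiency library 3 inside the N range. Without that library ASN1 was called, higher in P deficiency, with a log2 difference of -1.14. The glutamate dehydrogenases GDH1 and GDH2 had log2 differences of -0.07 ± 0.13 and -0.22 ± 0.15 and did not pass.

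Regulators of the nitrate response moved in both directions. NIGT1 (Os02g0325600, chromosome 2, 13096088 to 13098218, plus strand), a MYB-type repressor of nitrate uptake genes, was at 26.0, 37.8 and 29.6 in N deficiency and 1473, 1351 and 1298 in P deficiency. All P libraries were about level and far above the N libraries, and the controls at 123, 124 and 157 lay between them (log2 difference -5.43 ± 0.16, limma, Benjamini-Hochberg adjusted p = 6.07e-08). Among the NLP activators, NLP1 (Os03g0131100) was at 3582, 2929.8 and 3458 in N deficiency and 1339, 1498 and 1375 in P deficiency, with controls at 1296, 1271 and 1401 at the P level (log2 difference 1.24 ± 0.10, limma, Benjamini-Hochberg adjusted p = 7.64e-05). NLP4 (Os09g0549450) was at 3289, 2700.3 and 2879 in N deficiency and 1227, 1159.7 and 872 in P deficiency and had a log2 difference of 1.45 ± 0.16 (limma, Benjamini-Hochberg adjusted p = 0.000536). In both NLP genes the N libraries lay above all P and control libraries. NLP2 was also higher in N deficiency (log2 difference 0.76 ± 0.16, limma, Benjamini-Hochberg adjusted p = 0.0290), but was lost in the fit of 6 libraries and without N deficiency library 1 or 3, P deficiency library 1 or 2 or control library 2, at limma adjusted p from 0.0516 to 0.122. NLP3 did not pass (-0.17 ± 0.09).

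A further gene of the NLP domain type behaved unlike those. Os02g0136000, which carries an RWP-RK and a PB1 domain, was at 80.9, 57.6 and 55.4 in N deficiency and 2712, 2469 and 2316 in P deficiency. The P libraries were highest, the controls at 1059, 1151 and 1221 lay between and the N libraries were lowest (log2 difference -5.27 ± 0.14, limma, Benjamini-Hochberg adjusted p = 5.53e-08). Of the 7 tested RWP-RK genes, 3 were higher in N deficiency (NLP1, NLP2 and NLP4) and this one was higher in P deficiency (57.1% called). LBD38 (Os03g0609500), a LOB-domain factor of the family that represses nitrate-response genes in Arabidopsis, was at 1531, 1167 and 1363 in N deficiency and 2679, 2609.6 and 2628 in P deficiency, all N libraries below all P libraries and both below the controls at 4669, 4311 and 6512 (log2 difference -0.97 ± 0.16, limma, Benjamini-Hochberg adjusted p = 0.00697). It was the one call among 27 tested LOB-domain genes, a share of 3.7% against 3.78% of all tested genes, and LBD37 did not pass (-0.55 ± 0.35). Without P deficiency library 3, 2 LOB-domain genes were called higher in P deficiency. NF-YA genes encode a subunit of CCAAT-binding factors. Of 10 tested, 3 were higher in N deficiency and 0 in P deficiency, among them Os03g0647600 at 1625, 1439 and 1573 in N deficiency and 946, 869.5 and 835 in P deficiency (log2 difference 0.81 ± 0.10, limma, Benjamini-Hochberg adjusted p = 0.000990). Without N deficiency library 1 or 3, the 3 fell to 1.

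Carriers and oxygen-binding proteins of nitrogen metabolism also separated the deficiencies. Os12g0503000, a ureide permease of a family that carries allantoin and related nitrogen compounds, was at 160.0, 262 and 179.6 in N deficiency and 10271, 9662 and 11713 in P deficiency. The controls at 9379, 8732 and 9669.5 were near the P level and the N libraries alone were low (log2 difference -5.74 ± 0.17, limma, Benjamini-Hochberg adjusted p = 5.78e-08). Its neighbour Os12g0502800 went the other way, at 7846, 7086 and 8931 in N deficiency and 5080.2, 4368 and 4934 in P deficiency with a log2 difference of 0.73 ± 0.12 (limma, Benjamini-Hochberg adjusted p = 0.00963). The globin gene Os03g0233900, of a plant hemoglobin family that scavenges nitric oxide, was at 334, 514 and 257 in N deficiency and 3894, 3722 and 3485 in P deficiency, with the N libraries low and controls at 4109.8, 4164 and 4129.9 (log2 difference -3.38 ± 0.20, limma, Benjamini-Hochberg adjusted p = 6.71e-06). A second globin gene, Os03g0226200, was at 88.4, 79.5 and 52.5 in N deficiency and 497, 504 and 398 in P deficiency and had a log2 difference of -2.67 ± 0.21 (limma, Benjamini-Hochberg adjusted p = 5.92e-05). Of 5 tested globin genes, 2 were higher in P deficiency, and 4 were without P deficiency library 3. Os05g0517600, another globin gene, was higher in N deficiency at 14.9, 15.9 and 26.8 in N deficiency and 0, 2.05 and 2.86 in P deficiency, but this call was lost without N deficiency library 1 or 3 or P deficiency library 1 and with a pseudocount of 0.1, at limma adjusted p from 0.0505 to 0.149.

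Amino acid carriers leaned to the N side. Of 84 tested amino acid permeases, 7 were higher in N deficiency and 1 was higher in P deficiency, and the median log2 difference was 0.33. This is 9.52% called, against 3.78% of all tested genes. Os03g0641250 was at 948, 727 and 1125 in N deficiency and 248, 257 and 148 in P deficiency (log2 difference 2.11 ± 0.23, limma, Benjamini-Hochberg adjusted p = 0.000540), and its N libraries were above all others. The single member higher in P deficiency, Os01g0825800, was at 107, 125 and 102 in N deficiency and 747, 683 and 619 in P deficiency, with controls at 1556, 1475 and 1435 above both (log2 difference -2.61 ± 0.11, limma, Benjamini-Hochberg adjusted p = 6.23e-07). Without N deficiency library 1 or 3 the 7 became 3, without P deficiency library 1 or 2 they became 4, and the single gene became 4 without P deficiency library 3 and 2 without N deficiency library 2 or control library 1. Among 46 tested EamA-domain genes, a group that includes exporters of amino acids, 4 were higher in N deficiency and 3 in P deficiency (15.2% called). Os05g0409500 was at 911, 636 and 627 in N deficiency and 93.9, 73.8 and 37.2 in P deficiency (log2 difference 3.46 ± 0.31, limma, Benjamini-Hochberg adjusted p = 0.000145), while Os10g0210500 was at 138, 156 and 135 in N deficiency and 555, 472 and 982 in P deficiency with controls at 2893, 2579 and 2878 (log2 difference -2.15 ± 0.22, limma, Benjamini-Hochberg adjusted p = 0.000391).

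Genes with an SPX domain, which include phosphate sensors and the PHO1 and SPX-MFS transporters, were called often on the P side. Among 14 tested genes with an SPX domain, 9 were higher in P deficiency and 0 were higher in N deficiency, and the median log2 difference was -2.77, with the N mean above the P mean at 4 of the 14. This is 64.3% called, against 3.78% of all tested genes. SPX5 (Os03g0406100, chromosome 3, 16645244 to 16646434, plus strand) was at 85.6, 86.4 and 96.5 in N deficiency and 7701, 7177 and 6875 in P deficiency. Its P libraries lay within a narrow range far above the N libraries, and controls at 89.2, 69.3 and 51.8 were at the N level (log2 difference -6.32 ± 0.17, limma, Benjamini-Hochberg adjusted p = 5.53e-08). SPX1 (Os06g0603600) was at 206, 151 and 157 in N deficiency and 1826, 1817 and 2063 in P deficiency and SPX2 (Os02g0202200) at 527, 372 and 478 in N deficiency and 3859, 3239 and 2882 in P deficiency, with log2 differences of -3.48 ± 0.14 and -2.86 ± 0.15. SPX3 and SPX6 were almost silent outside P deficiency. SPX3 (Os10g0392600) had 81 reads over the P libraries and 2 over the N libraries, which is 44.2 times as many per size factor (95% counting interval 11.9 to 371). That interval leaves out the spread between libraries. With that spread, the log2 difference of SPX3 was -4.34 ± 0.59 (limma, Benjamini-Hochberg adjusted p = 0.00254). SPX6 (Os07g0614700) was at 3.72, 1.99 and 0 in N deficiency and 192, 161 and 225 in P deficiency, a log2 difference of -6.31 ± 0.61 (limma, Benjamini-Hochberg adjusted p = 0.000239). SPX4 (Os03g0827500), which in rice is controlled mainly by protein breakdown, was at 450.2, 412 and 483 in N deficiency and 481, 467 and 392 in P deficiency, with overlapping groups, controls at 456, 405 and 495 and a log2 difference of 0.01 ± 0.12.

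The factors that SPX proteins bind differed little. PHR1, PHR2 and PHR3, the MYB-type activators of phosphate starvation genes, had log2 differences of 0.14 ± 0.11, 0.11 ± 0.09 and -0.05 ± 0.15 and did not pass. PHR2 (Os07g0438800) was at 1234, 1128 and 1350.0 in N deficiency and 1165, 1172 and 1099.8 in P deficiency, with overlapping groups. PHR4 (Os06g0703900) was the exception, at 754, 730.2 and 834 in N deficiency and 1408, 1315 and 1499 in P deficiency with controls at 557, 479 and 617 (log2 difference -0.86 ± 0.11, limma, Benjamini-Hochberg adjusted p = 0.00183). The negative regulators of phosphate uptake went the other way. PHO2 (Os05g0557700), a ubiquitin-conjugating enzyme that removes phosphate transporters, was at 10526, 7618 and 8262 in N deficiency and 3758, 3745 and 4471 in P deficiency, with controls at 4916, 4439.6 and 7112 (log2 difference 1.13 ± 0.19, limma, Benjamini-Hochberg adjusted p = 0.00838). NLA1 (Os07g0673200), a ubiquitin ligase with a related role, had a log2 difference of 0.88 ± 0.20 (limma, Benjamini-Hochberg adjusted p = 0.0393). NLA1 lost its call without any N library, without P deficiency library 1 or 2 or without control library 2, at limma adjusted p from 0.0598 to 0.147, so the regulators higher in N deficiency then numbered 1 and not 2.

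Phosphate transporters were also called mostly on the P side. This list shares its PHO1 and SPX-MFS genes with the genes that have an SPX domain, so the counts of both are not independent. Of 14 tested, 9 were higher in P deficiency, 0 were higher in N deficiency and the median log2 difference was -2.21. This is 64.3% called, against 3.78% of all tested genes. PT6 (Os08g0564000, chromosome 8, 28244202 to 28246028, plus strand), a PHT1 transporter of root uptake, was at 9.30, 19.9 and 16.2 in N deficiency and 1681, 1855 and 2509.6 in P deficiency. N libraries and controls, at 7.90, 5.69 and 13.6, were both low (log2 difference -7.00 ± 0.34, limma, Benjamini-Hochberg adjusted p = 1.72e-06). PT8 (Os10g0444700), a main PHT1 transporter of rice roots, was at 906, 1238 and 1299 in N deficiency and 4500.4, 3687 and 3973 in P deficiency, higher in all P libraries from a level already high in controls at 850.2, 884 and 1186 (log2 difference -1.83 ± 0.17, limma, Benjamini-Hochberg adjusted p = 0.000163). PT2 (Os03g0150800), which moves phosphate within the plant, was at 76.3, 76.5 and 51.6 in N deficiency and 453, 474 and 317 in P deficiency (log2 difference -2.59 ± 0.22, limma, Benjamini-Hochberg adjusted p = 9.77e-05). PT4 (Os04g0186400) was at 59.5, 33.8 and 52.5 in N deficiency and 699.8, 708 and 563 in P deficiency (log2 difference -3.76 ± 0.22, limma, Benjamini-Hochberg adjusted p = 6.18e-06).

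Several PHT1 genes were close to silent without P deficiency. PT9 (Os06g0324800) was at 6.51, 3.97 and 1.91 in N deficiency and 209, 204 and 106 in P deficiency, with no read in any control library (log2 difference -5.12 ± 0.43, limma, Benjamini-Hochberg adjusted p = 8.65e-05). Its near-identical partner PT10 was listed only in the P table, with 101, 128 and 73 reads in the P libraries and 0 in the controls, and was left out of the fit of genes in both tables. With absent genes set to 0, an alternative that takes absence from the N table as no reads, PT10 was also called higher in P deficiency, and the transporters called were then 10 of 15. How shared reads were split between PT9 and PT10 is uncertain. PT3 (Os10g0444600) was at 7.44, 1.99 and 6.69 in N deficiency and 573, 615 and 255 in P deficiency, with P deficiency library 3 lowest of its group (log2 difference -6.28 ± 0.54, limma, Benjamini-Hochberg adjusted p = 9.74e-05). PT3 overlaps Os10g0444566 over 1148 bases on the opposite strand, and that gene was at 2.79, 1.99 and 1.91 in N deficiency and 436, 385 and 222 in P deficiency; no source used here gives the strand setting of the counting, so the reads of the pair cannot be told apart. PT1 (Os03g0150600), a PHT1 transporter known for steady expression, was at 5298, 4698 and 6399 in N deficiency and 5355, 3890.4 and 4406 in P deficiency, with overlapping groups and a log2 difference of 0.26 ± 0.17. PT5 did not pass either (-1.25 ± 0.59).

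Export to the shoot and storage in the vacuole were mixed. PHO1;2 (Os02g0809800), which loads phosphate into the xylem in rice, was at 7869, 5898 and 6340.4 in N deficiency and 7062, 6407 and 10428 in P deficiency and did not pass (-0.23 ± 0.22). PHO1;1 was at 26.98, 21.9 and 18.2 in N deficiency and 144, 148 and 206 in P deficiency with a log2 difference of -2.84 ± 0.29 (limma, Benjamini-Hochberg adjusted p = 0.000335), although it overlaps Os01g0110050 over 935 bases. PHO1;3 had a log2 difference of -1.61 ± 0.33 (limma, Benjamini-Hochberg adjusted p = 0.0238) and lost its call without any N library and without P deficiency library 2 or 3, at limma adjusted p from 0.0553 to 0.0837. The SPX-MFS genes encode vacuolar phosphate carriers. SPX-MFS2 (Os02g0678200) was at 19.5, 32.8 and 5.73 in N deficiency and 670.1, 656 and 622 in P deficiency, and controls at 226, 221 and 393 lay between (log2 difference -5.28 ± 0.48, limma, Benjamini-Hochberg adjusted p = 0.000160). SPX-MFS1 and SPX-MFS3 had positive log2 differences of 1.57 ± 0.54 and 0.50 ± 0.17 and did not pass in the fit of all libraries, but SPX-MFS1 was called with a pseudocount of 10 (limma, Benjamini-Hochberg adjusted p = 0.0442) and by DESeq2 (log2 difference 1.71, Benjamini-Hochberg adjusted p = 0.0270).

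**Figure D3:**
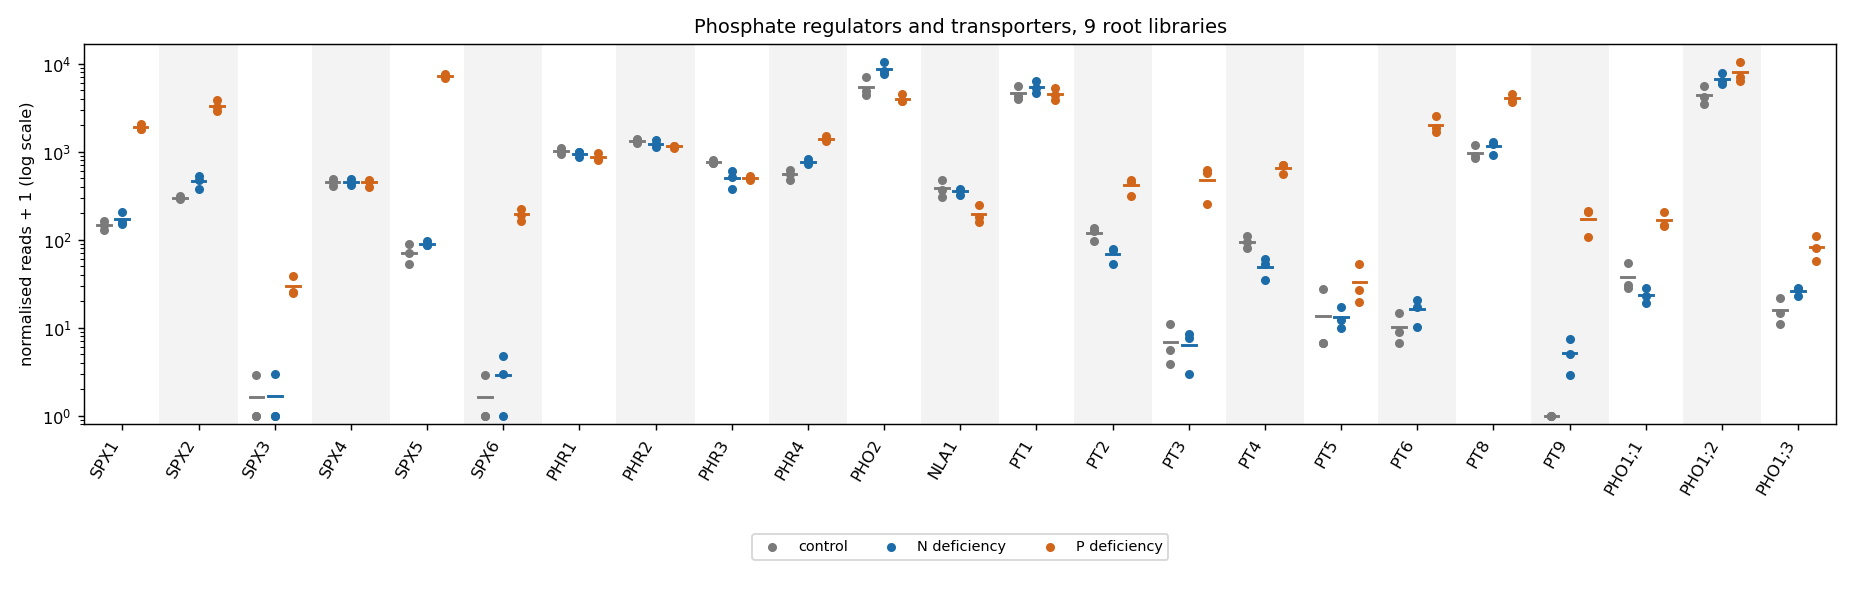
Normalised reads + 1 (log scale) of phosphate regulators and transporters in the 9 libraries. Each point is 1 library and each bar the mean of 3 values on the plotted scale, in grey for control, blue for N deficiency and orange for P deficiency. SPX1, SPX2, SPX3, SPX5, SPX6 and most PT genes stand highest in P deficiency, SPX4 and PHR1 to PHR3 are level between N and P deficiency, and PHO2 and NLA1 are lower in P deficiency.

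Some enzymes that free phosphate from organic compounds were higher in P deficiency, and most did not pass. Of 23 tested purple acid phosphatases, 9 were higher in P deficiency, 1 was higher in N deficiency and 13 did not pass. This is 43.5% called, against 3.78% of all tested genes. Os11g0151700 was at 378, 179.8 and 354 in N deficiency and 12528, 12658 and 12354 in P deficiency, the P libraries within a narrow range and controls at 312, 306 and 318 at the N level (log2 difference -5.43 ± 0.23, limma, Benjamini-Hochberg adjusted p = 6.23e-07). PAP10a (Os01g0776600), a secreted root phosphatase, was at 671, 839.5 and 697 in N deficiency and 5904, 5301 and 5067 in P deficiency (log2 difference -2.88 ± 0.11, limma, Benjamini-Hochberg adjusted p = 2.75e-07). PAP10c (Os12g0576600) was at 48.4, 53.6 and 75.5 in N deficiency and 1137, 945 and 998 in P deficiency, with controls at 6.77, 5.69 and 8.19 below both deficiencies (log2 difference -4.12 ± 0.21, limma, Benjamini-Hochberg adjusted p = 2.22e-06). Glycerophosphodiester phosphodiesterases act on deacylated phospholipids, and 4 of 13 tested were higher in P deficiency and 0 in N deficiency (30.8% called). Os03g0603600 was at 252, 297 and 283 in N deficiency and 4213, 3968 and 2720.4 in P deficiency (log2 difference -3.68 ± 0.16, limma, Benjamini-Hochberg adjusted p = 6.23e-07). Ribonucleases of the T2 family, some of which free phosphate from RNA, showed 3 of 8 tested members higher in P deficiency (37.5% called). The largest, Os08g0434100, was at 360.0, 369.6 and 483 in N deficiency and 1460.1, 1192 and 1819 in P deficiency (log2 difference -1.87 ± 0.16, limma, Benjamini-Hochberg adjusted p = 0.000115).

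Genes of lipid metabolism were among the widest differences on the P side. Os11g0658900, a class 3 lipase by its domain, was at 1.86, 0.993 and 1.91 in N deficiency and 926, 821 and 696 in P deficiency. With controls at 2.26, 5.69 and 6.37, only P deficiency was high, and the log2 difference of -8.31 ± 0.35 was the largest of the rule on the P side (limma, Benjamini-Hochberg adjusted p = 6.23e-07). Os08g0299400, which makes the galactolipid MGDG and is MGD2 in the RefSeq gene table, was at 16.7, 12.9 and 8.60 in N deficiency and 3252, 2696 and 2796 in P deficiency with controls at 10.2, 19.0 and 9.09 (log2 difference -7.77 ± 0.30, limma, Benjamini-Hochberg adjusted p = 3.03e-07). Its relative Os02g0802700, MGD3 in that table, differed less, at 1982, 2144 and 2098 in N deficiency and 3898, 3896 and 2973 in P deficiency (log2 difference -0.78 ± 0.11, limma, Benjamini-Hochberg adjusted p = 0.00412). The sulfolipid genes were both higher in P deficiency. SQD1 (Os05g0387200), which makes the sulfosugar donor, was at 425, 318 and 454 in N deficiency and 1714, 1547 and 1666 in P deficiency, and SQD2 (Os07g0100300), which transfers the sulfosugar to lipid, was at 325, 261 and 324 in N deficiency and 2272, 1953 and 2219 in P deficiency. Their log2 differences were -2.05 ± 0.14 and -2.82 ± 0.15, and N libraries were at the control level in both.

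Several iron acquisition genes were lower in N deficiency than in P deficiency, and 9 of the 14 listed had their highest mean in control roots. Grasses take up iron by releasing phytosiderophores, made from nicotianamine, and bringing the chelate back into the root. Of 14 listed genes, 6 were higher in P deficiency and 1 was higher in N deficiency. NAS1 (Os03g0307300), a nicotianamine synthase, was at 0, 2.98 and 0 in N deficiency and 21.4, 77.9 and 177 in P deficiency, with controls at 1237, 616 and 566 far above both. It had 280 reads over the P libraries and 3 over the N libraries, which is 102 times as many per size factor (95% counting interval 34.5 to 497). That interval leaves out the spread between libraries. With that spread, the log2 difference of NAS1 was -5.42 ± 0.75 (limma, Benjamini-Hochberg adjusted p = 0.00284). NAS2 (Os03g0307200), its neighbour and near copy, was at 7.44, 2.98 and 2.87 in N deficiency and 32.1, 117 and 172 in P deficiency, and how shared reads were split between the pair is uncertain (log2 difference -4.11 ± 0.59, limma, Benjamini-Hochberg adjusted p = 0.00343). In both genes P deficiency library 1 was lowest and library 3 highest of the P libraries. TOM1 (Os11g0134900), which exports phytosiderophores, was at 3.72, 4.97 and 3.82 in N deficiency and 19.0, 22.6 and 43.9 in P deficiency, with controls at 111, 78.8 and 47.3 (log2 difference -2.43 ± 0.40, limma, Benjamini-Hochberg adjusted p = 0.00739).

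The remaining iron calls were weaker. NAAT1 (Os02g0306401), the aminotransferase that follows nicotianamine synthase, was at 130.2, 113 and 81.2 in N deficiency and 175, 187 and 288 in P deficiency, with controls at 1635, 1187 and 1429 (log2 difference -0.98 ± 0.23, limma, Benjamini-Hochberg adjusted p = 0.0433). The locus named IRO2 in the deposited tables (Os01g0952800), whose deposited domain is one of unknown function rather than that of a helix-loop-helix factor, was at 23.3, 9.93 and 11.5 in N deficiency and 30.9, 46.1 and 67.7 in P deficiency, with controls at 409.9, 345 and 379 (limma, Benjamini-Hochberg adjusted p = 0.0265). RefSeq places the symbol IRO2 at another position, so the identity of this locus is uncertain. HRZ2 (Os05g0551000), an iron-binding ubiquitin ligase, had a log2 difference of -0.92 ± 0.21 (limma, Benjamini-Hochberg adjusted p = 0.0462). NAAT1 and HRZ2 lost their calls without any 1 of the 9 libraries, and the IRO2 locus without N deficiency library 2 or 3, P deficiency library 2 or 3 or control library 1 or 2, at limma adjusted p from 0.0502 to 0.181 over the 3 genes and all alternatives that ended a call. The 6 genes higher in P deficiency were thus 3 without each of the 6 libraries named for IRO2. IRT1 (Os03g0667500), a ferrous iron transporter, was the gene higher in N deficiency, at 217, 208 and 294 in N deficiency and 115, 76.9 and 67.7 in P deficiency with controls at 191, 229.7 and 208 at the N level (log2 difference 1.48 ± 0.21, limma, Benjamini-Hochberg adjusted p = 0.00356). It overlaps Os03g0667400 over 922 bases on the opposite strand. YSL15, DMAS1, NAS3, IRO3 and the ferritins FER1 and FER2 did not pass, with log2 differences of -0.85 ± 0.55, -0.55 ± 0.21, 0.34 ± 0.12, -0.75 ± 0.18, 0.08 ± 0.12 and -0.10 ± 0.14. IRO3, at 161, 115 and 143 in N deficiency and 214, 197 and 303 in P deficiency, was called in 4 alternatives, higher in P deficiency in each, among them DESeq2 (Benjamini-Hochberg adjusted p = 0.00591), edgeR with median-of-ratios factors (0.0499) and a filter at a mean of 10 (0.0492).

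**Figure D4:**
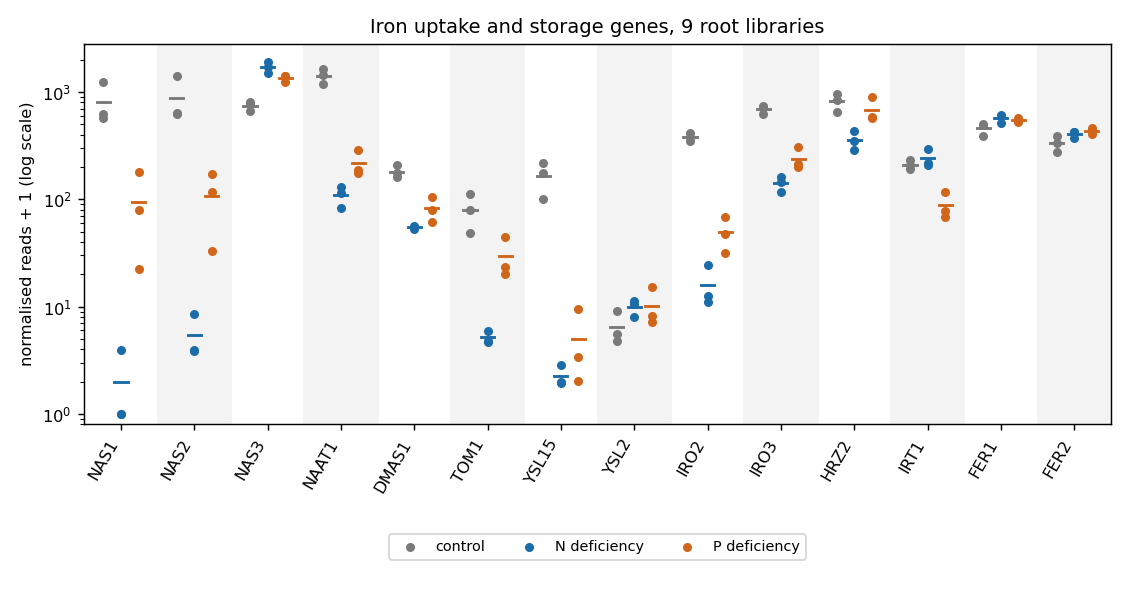
Normalised reads + 1 (log scale) of the 14 listed iron uptake and storage genes in the 9 libraries. Each point is 1 library and each bar the mean of 3 values on the plotted scale, in grey for control, blue for N deficiency and orange for P deficiency. NAS1, NAS2, TOM1, NAAT1 and the locus named IRO2 step down from control to P deficiency to N deficiency, IRT1 is lowest in P deficiency, and the ferritins FER1 and FER2 are level between N and P deficiency.

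Strigolactone genes, whose hormone shapes branching and recruits mycorrhizal fungi, gave few and fragile calls. Of 8 tested, D10 (Os01g0746400), a carotenoid cleavage enzyme of the pathway, was higher in P deficiency, at 82.8, 69.5 and 70.7 in N deficiency and 171, 139 and 115 in P deficiency, with controls at 22.6, 19.9 and 20.01 below both (log2 difference -0.91 ± 0.20, limma, Benjamini-Hochberg adjusted p = 0.0332). D53 (Os11g0104300), a repressor of the signal, was higher in N deficiency (log2 difference 0.69 ± 0.13, limma, Benjamini-Hochberg adjusted p = 0.0136). The share called in this list was 25.0%, against 3.78% of all tested genes. D10 was lost without any N library, P deficiency library 1 or 2 or control library 2 and in the fit of 6 libraries (limma adjusted p from 0.0530 to 0.130), and D53 without N deficiency library 3 or P deficiency library 2 (0.0586 and 0.0644). The GRAS factors NSP1 and NSP2, which promote strigolactone synthesis, stood far above controls in most deficient libraries. NSP1 (Os03g0408600) was at 553, 585 and 655 in N deficiency and 1049, 1032 and 744 in P deficiency, with controls at 36.1, 37.0 and 45.5, and did not pass between the deficiencies (limma, Benjamini-Hochberg adjusted p = 0.0562). It was called, higher in P deficiency, in 5 alternatives, which were DESeq2, both edgeR fits and the fits without P deficiency library 3 or control library 3 (Benjamini-Hochberg adjusted p from 0.00467 to 0.0493). NSP2 (Os03g0263300) was at 84.7, 76.5 and 76.4 in N deficiency and 258, 224 and 43.9 in P deficiency, where P deficiency library 3 fell below all N libraries and the other P libraries were above them. Without P deficiency library 3 the genes higher in P deficiency numbered 4, without control library 3 they numbered 2.

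Several photosynthesis genes, listed as markers of shoot tissue, were higher in P deficiency. Of 43 tested, 11 were higher in P deficiency and 0 in N deficiency, the median log2 difference was -0.98, and the N mean exceeded the P mean at 1 gene. This is 25.6% called, against 3.78% of all tested genes. At 39 of the 43 the mean was highest in control roots. Summed over the list, the level was 8872 to 12507 in the N libraries, 21710 to 29906 in the P libraries and 27161 to 72843 in the controls. Of the list, 1 member was at 0 in every N library and 2 were at 0 in every P library. The largest difference, at Os07g0178700, which encodes a light-harvesting chlorophyll protein, was between 46.5, 42.7 and 80.3 in N deficiency and 1447, 1027 and 5671 in P deficiency, with controls at 1000.4, 3019 and 4387 (log2 difference -5.20 ± 0.66, limma, Benjamini-Hochberg adjusted p = 0.00149). P deficiency library 3 was the highest of the 9 libraries at this gene, and the controls themselves spread widely. Counts were 6 without N deficiency library 1 or 2, 5 without N deficiency library 3 or P deficiency library 1, 7 without P deficiency library 2 or control library 2, 17 without control library 1 and 18 without control library 3. DESeq2 called 22 genes of the list and the fit of the 6 N and P libraries alone called 19, all higher in P deficiency. The part of light or shoot tissue in these levels was not tested.

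Some water channel and potassium transporter genes were higher in P deficiency. Of 43 tested aquaporins, 5 were higher in P deficiency and 0 in N deficiency, with a median log2 difference of -0.43. This is 11.6% called, against 3.78% of all tested genes. Os06g0336200 was at 12122, 17039 and 17029.9 in N deficiency and 53071, 48741 and 37362 in P deficiency, with controls at 41962, 37479.6 and 31788 (log2 difference -1.59 ± 0.21, limma, Benjamini-Hochberg adjusted p = 0.00218). The 5 became 3 without N deficiency library 2 or 3, P deficiency library 1 or 2 or control library 2, and 8 without P deficiency library 3. Of 35 tested potassium transporter genes, 4 (11.4%) were higher in P deficiency and 0 in N deficiency. Their median log2 difference was however -0.05, and the N mean exceeded the P mean at 18 of them. Os06g0701700, a cation transport protein by its domain, was at 328, 414 and 381 in N deficiency and 1784, 1763 and 1544 in P deficiency, with controls at 2163, 1534 and 2114 near the P level (log2 difference -2.18 ± 0.15, limma, Benjamini-Hochberg adjusted p = 1.74e-05). Os04g0607600, with the same domain, was at 22.3, 13.9 and 22.9 in N deficiency and 145, 159 and 143 in P deficiency (log2 difference -2.89 ± 0.25, limma, Benjamini-Hochberg adjusted p = 0.000111). Among 55 metal transporters, Os02g0131800, of the NRAMP family, was the 1 gene higher in P deficiency, at 1664, 1742 and 1759 in N deficiency and 5825, 5879.7 and 5923 in P deficiency, against 5 higher in N deficiency. The metal transporters called were 10.9% of those tested. The 5 became 3 without N deficiency library 1 or 3, P deficiency library 1 or 2 or control library 2. None of 13 sulfate transporters was called.

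Outside nutrient transport, single genes stood out in large families. The cytochrome P450 family had 9 of 273 tested genes higher in N deficiency and 15 higher in P deficiency, or 8.79% called against 3.78% of all tested genes. Os01g0627800 was at 1.86, 0 and 1.91 in N deficiency and 35.6, 96.4 and 105 in P deficiency (log2 difference -5.16 ± 0.57, limma, Benjamini-Hochberg adjusted p = 0.000611). The neighbours Os06g0570600 and Os06g0570566 were at 1.86, 0 and 9.55 in N deficiency and 120.0, 159 and 35.3 in P deficiency and at 2.79, 5.96 and 5.73 in N deficiency and 97.4, 162 and 33.4 in P deficiency, in both of which P deficiency library 3 was the lowest P library. Without N deficiency library 1 or 3 the 9 became 4 and without P deficiency library 2 they became 3, and the 15 became 9 without N deficiency library 1 or P deficiency library 1 and 23 without P deficiency library 3. An unannotated locus with terpene synthase domains was at 1244, 747 and 1032 in N deficiency and 120.0, 94.3 and 84.9 in P deficiency, with controls at 9.03, 11.4 and 26.4 (log2 difference 3.31 ± 0.35, limma, Benjamini-Hochberg adjusted p = 0.000413). Peroxidase Os11g0112200 was at 139.5, 172 and 149 in N deficiency and 10.7, 21.5 and 21.9 in P deficiency (log2 difference 3.08 ± 0.29, limma, Benjamini-Hochberg adjusted p = 0.000177). Glutathione transferases had 7 of 83 tested genes higher in P deficiency and 1 in N deficiency, or 9.64% called. The 7 became 1 without N deficiency library 1. They became 2 without N deficiency library 3, P deficiency library 1 or 2 or control library 1. They became 3 without control library 2 and 4 without N deficiency library 2.

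Transcription factor families gave few calls. Of 126 AP2/ERF genes 2 were higher in each deficiency, of 84 WRKY genes 4 were higher in N deficiency and 3 in P deficiency, of 91 NAC genes 4 and 1, and of 82 bHLH genes 1 and 3. The shares called were 3.17% for AP2/ERF, 8.33% for WRKY, 5.49% for NAC and 4.88% for bHLH genes, against 3.78% of all tested genes. In the 9 fits that left out 1 library, the counts in N deficiency ran over 1 to 3, 1 to 7, 0 to 5 and 0 to 3 in that order, and those in P deficiency over 2 to 3, 2 to 3, 0 to 2 and 0 to 4. Os06g0504900, a WRKY gene, was at 32.6, 44.7 and 65.0 in N deficiency and 2.38, 0 and 2.86 in P deficiency, with controls at 1.13, 2.85 and 2.73 (log2 difference 4.31 ± 0.56, limma, Benjamini-Hochberg adjusted p = 0.00175). In the other direction, an unannotated locus with a WRKY domain was at 17.7, 15.9 and 16.2 in N deficiency and 166, 220.5 and 113 in P deficiency (log2 difference -3.20 ± 0.26, limma, Benjamini-Hochberg adjusted p = 6.99e-05). Os03g0815800, an AP2 gene, was at 1353, 1172 and 1315 in N deficiency and 3020.1, 3082 and 3771 in P deficiency (log2 difference -1.36 ± 0.11, limma, Benjamini-Hochberg adjusted p = 7.40e-05). The auxin-related gene Os01g0924966 was at 13.0, 9.93 and 3.82 in N deficiency and 137, 120.0 and 109 in P deficiency (log2 difference -3.76 ± 0.38, limma, Benjamini-Hochberg adjusted p = 0.000293). Machinery for growth gave few calls. Of 282 ribosomal protein genes 1 was called, higher in P deficiency, and that count was 0 without N deficiency library 1 or 3, any P library or control library 1 or 2. Their differences were small but mostly of one sign, with a median log2 difference of -0.18 and the N mean above the P mean at 38 of 282. The summed levels overlapped, at 423460, 514155 and 363922 in N deficiency and 451115, 540288 and 459207 in P deficiency. Library 2 had the highest sum in each group, controls included. These genes come from the same libraries, so their signs are not independent observations. Of 81 genes of histones, MCM and cyclins, which mark dividing cells, 1 was called, the linker histone Os07g0184800, at 4475, 4671 and 4092 in N deficiency and 2854, 2936 and 2783 in P deficiency (log2 difference 0.62 ± 0.10, limma, Benjamini-Hochberg adjusted p = 0.00663). No call fell on 30 glutaredoxins in the fit of all libraries. Leaving out P deficiency library 3 raised the count in 3 growth and wall families. Without it, 11 of 53 tested expansins, 13 of 133 class III peroxidases and 11 of 91 auxin response genes were higher in P deficiency. With it, these counts were 0, 3 and 3. Over all genes, those higher in P deficiency numbered 1058 without it and 786 with it. Peroxidases higher in N deficiency rose from 4 to 7. DESeq2 on all libraries called 4, 10 and 5 genes of the 3 families higher in P deficiency.

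Some of the widest differences lay in genes of no listed group. Os07g0129300, a cysteine-rich secretory protein of the type of pathogenesis-related protein 1, was at 130.2, 463 and 293 in N deficiency and 30996, 33163 and 25196 in P deficiency, with controls at 10316, 9671 and 10099.7 between (log2 difference -6.82 ± 0.36, limma, Benjamini-Hochberg adjusted p = 2.59e-06). Os04g0423400, of the ABA, stress and ripening type, was at 96.7, 118 and 128 in N deficiency and 5814, 6494 and 9873 in P deficiency, with controls at 154, 129 and 254 at the N level (log2 difference -5.97 ± 0.26, limma, Benjamini-Hochberg adjusted p = 6.77e-07). On the N side, Os10g0580400, a sodium:solute symporter by its domain, was at 15993, 9877 and 17571 in N deficiency and 886, 1014 and 563 in P deficiency (log2 difference 4.14 ± 0.29, limma, Benjamini-Hochberg adjusted p = 2.15e-05). Os01g0704000, an invertase or pectin methylesterase inhibitor by its domain, lies next to NRT2.3 in locus number and had 500 reads over the N libraries and 2 over the P libraries, which is 229 times as many per size factor (95% counting interval 63.1 to 1896). That interval leaves out the spread between libraries. With that spread, the log2 difference of Os01g0704000 was 6.71 ± 0.61 (limma, Benjamini-Hochberg adjusted p = 0.000158). An unannotated locus on chromosome 3, from 2607729 to 2609646, falls outside the naming rule and was chosen after its values were seen. It was at 0.930, 3.97 and 0.955 in N deficiency and 17864, 15378 and 18448 in P deficiency, with controls at 22.6, 32.3 and 21.8, a log2 difference of -12.66 ± 0.34 and the largest of any gene tested (limma, Benjamini-Hochberg adjusted p = 5.53e-08). Os02g0609000, also chosen after its values were seen, had 1254 reads over the P libraries and 0 over the N libraries, so it was at least 456-fold higher in P deficiency against a floor of 3 reads over the N group. Its log2 difference was -8.78 ± 0.36 (limma, Benjamini-Hochberg adjusted p = 5.34e-07).

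**Figure D5:**
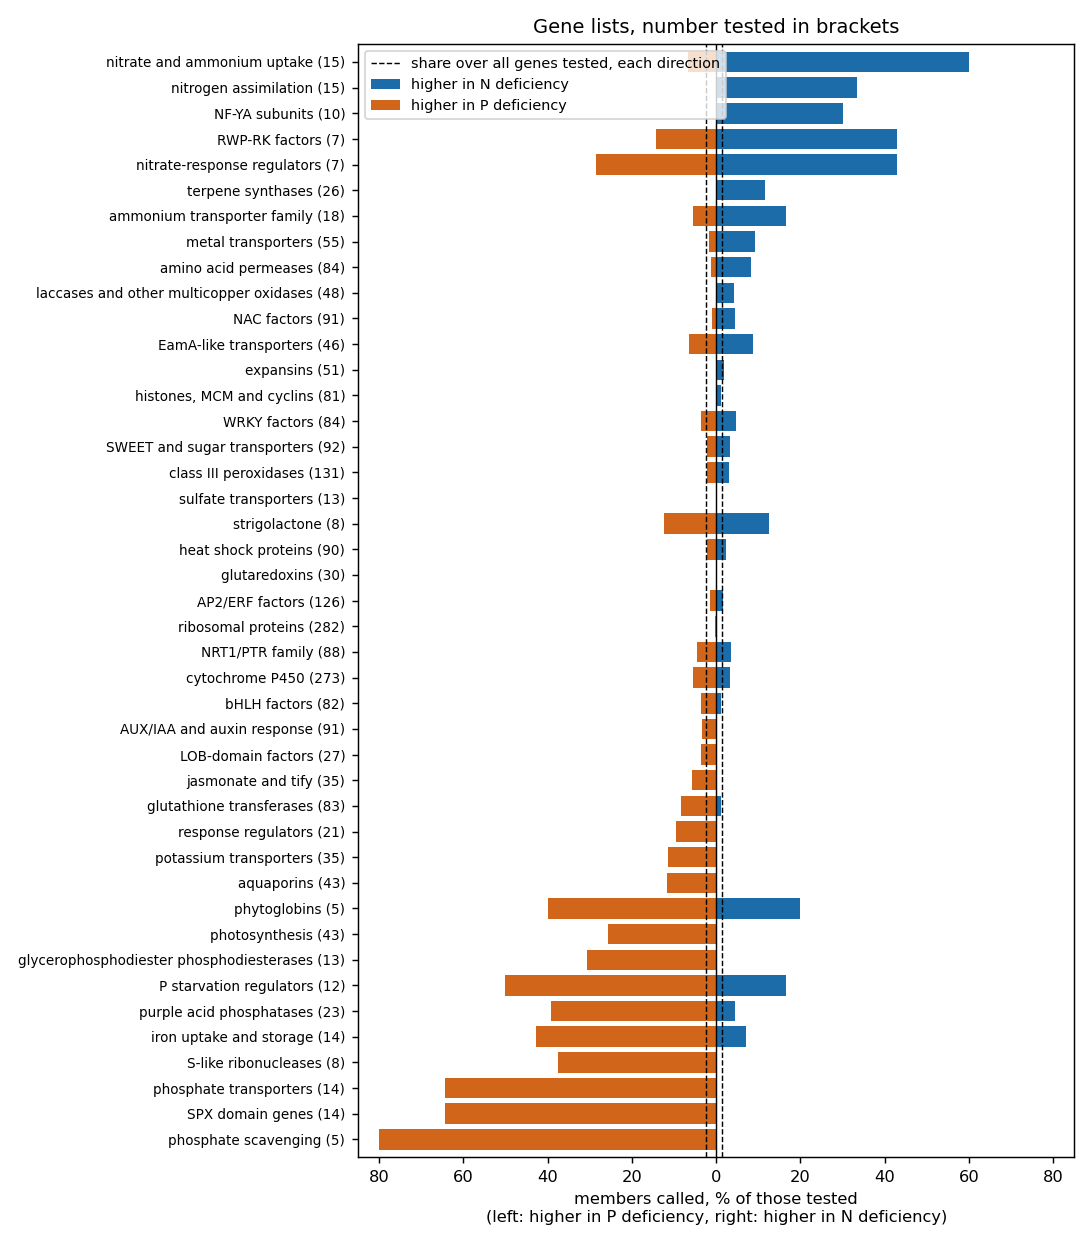
Share of tested members called higher in P deficiency (orange, to the left) and in N deficiency (blue, to the right) for each gene list with at least 5 tested members, in % of the number in brackets. Dashed lines mark the shares over all tested genes, 2.39% and 1.39%. Phosphate scavenging, SPX domain genes and phosphate transporters reach farthest to the left, and nitrate and ammonium uptake farthest to the right. Lists can share members.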

How the data were processed

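RNA sequencing libraries (TruSeq, from Trizol-extracted root RNA, per the labels' protocols) were deposited as 2 tables, N deficiency with control and P deficiency with control, with the same 3 control libraries in each. Alignment with HISAT2 2.0.5 is named per the submitters' processing notes, which give hg38, a human assembly, as the build. For the rice genome build, annotation, counter, strand setting and size-factor method (not given in the sources used here) nothing is assumed, and coordinates are as deposited. Each library column is a deposited normalised signal: gene reads over 1 size factor a library, set within each table. Group means, log2 fold changes, p-values and adjusted p-values in the tables are the authors' own, per the file headers, and were not used.

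Dividing each column by its value of 1 read gave whole reads for 100% of values in all 12 library columns, within a tolerance of 0.001. Control reads were identical in both tables at all 34285 shared genes. Median-of-ratios size factors over the 9 libraries put them on 1 scale. Genes in 1 table only (843 and 774) were left out, and a mean of at least 1 in any group was required for the test with limma 3.58.1 (R 4.3.3, intensity trend) on log2(value + 1), with all 9 libraries and N minus P as the contrast. limma was the planned test because the deposited values are normalised signals, and it was kept after whole reads had been recovered. On the recovered reads, edgeR 4.0.16 with TMM called 1272 genes. DESeq2 1.42.0, other pseudocounts and filters, a fit of 6 libraries, the replicate block and each library left out in turn were further alternatives. The code was tested on simulated data.

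Symbols and protein domains came from the deposited tables, and hand-listed symbols from textbook knowledge. Of 101 hand-listed or named loci, 96 were in the tables. In RefSeq's gene table for assembly ASM3414082v1, 58 symbols lay on the same chromosome within a wide window around the locus. Such a window cannot tell neighbouring genes apart, and 41 symbols were not in that table. RefSeq places the symbol IRO2 outside the window around Os01g0952800, so that name is in conflict. PT7 was in RefSeq, but its locus was absent from the deposited data. No sequences were used. Named genes were the 10 largest passing differences per direction (a mean of at least 20 in the higher group, no overlap, an informative symbol or domain), up to 3 passing members per list, and all hand-listed genes; the text prints those its results turn on. Genes outside the rule are marked. The members, lists and genes were chosen with earlier results of these data known. Intervals and floors cover counting error only. Nothing in the labels beyond the words biological replicates says how plants were pooled.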

Additional observations from a re-analysis of the deposited data

How the results depend on the processing

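Of 137 named genes that passed, 97 passed in the same direction in all 20 alternatives, 40 lost the call in at least 1, and no named gene changed direction. DESeq2 called 2278 genes, 974 higher in N deficiency and 1304 higher in P deficiency, and 1225 of the 1241 genes called by limma were among them. A fit of the 6 N and P libraries alone called 291 genes higher in N deficiency. Without 1 library, the total ran from 689 to 1573, the genes higher in N deficiency from 157 to 515 and those higher in P deficiency from 529 to 1058. The cause of these shifts was not tested. edgeR with TMM, edgeR with median-of-ratios factors, limma with TMM, pseudocounts of 0.1 and 10, no filter, a filter at a mean of 10 and absent genes set to 0 kept the total within 1.5 times. Scalings moved the median of all genes by under 0.1 on the log2 scale. The replicate block called 1522 genes. Same-numbered N and P libraries had correlated deviations of -0.0999, 0.349 and 0.367 for numbers 1, 2 and 3. N library 2 with P library 3 had -0.391, and N library 3 with P library 2 had -0.378. Controls 2 and 3 had 0.195 to 0.264 with the same-numbered N and P libraries. Some differently numbered pairs were positive too, such as N library 2 with P library 1 at 0.242 and control 3 with N library 1 at 0.168. Deviations from a group mean cancel within the group, so these correlations are not independent of each other. Same-numbered libraries 2 and 3 thus had positive correlations and those numbered 1 did not, but positive values were not confined to shared numbers. What the numbers share is not given in the labels and was not tested, so the main fit left them out. With 3 libraries per group and a median spread (SD over mean) of 0.130 in N and 0.141 in P deficiency, depth limits most the genes with few reads, such as SPX3, whose counting interval ran from 11.9 to 371.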
